A study of Rattus norvegicus with 32 samples.

Results

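The genes described here make fatty acids from citrate and put the first double bond into them: Acly, Me1, Acaca, Acacb, Fasn, Scd and Scd2. Members were all probe sets on the array whose gene symbol was one of these 7, which gave 20 probe sets of the 8740 that were not controls. Scd2 had 6 of them, Me1 5, Acly 3, Fasn 2, Scd 2, Acaca 1 and Acacb 1, and 1 further probe set shared between Scd, Scd2 and other genes was left out. The array named 4736 genes in all. A filter on low signals left 18 of the 20 probe sets, which covered all 7 genes. The dim ones were an Me1 probe set (rc_AI171067_at, mean signal 37.8) and an Scd2 probe set (M15114_at, mean signal 11.3).

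Total RNA of normal mammary gland from rats was hybridised to 1 Affymetrix array per sample, in a series on why rat strains differ in their susceptibility to mammary cancer. The 30 arrays of single samples formed 6 groups of 5. F1 was the hybrid of Cop and F344, and the inbred strains were these parents and, besides, WF, BUF/N and ACI. A Cop pool and an F344 pool had 1 array each. The labels name no treatment and no engineered allele, and give no age, sex, reproductive stage or batch. Samples are named by group and number, so that F1 2 is the second F1 sample. The labels do not say whether each sample is 1 animal, and the p-values then measure only the spread between these samples.

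Fatty acid synthesis starts from citrate. ATP citrate lyase (Acly) splits it into acetyl-CoA, malic enzyme (Me1) supplies NADPH, acetyl-CoA carboxylase makes malonyl-CoA, and fatty acid synthase (Fasn) builds palmitate from it. Acaca encodes the cytosolic carboxylase that feeds synthesis, while the product of Acacb lies at the mitochondrion and its malonyl-CoA restrains fatty acid oxidation. The stearoyl-CoA desaturases Scd and Scd2 then introduce a double bond and yield oleate and palmitoleate. In the mammary gland this pathway runs in the adipocytes of the fat pad and, for milk fat, in the secretory epithelium, and its genes are classical targets of SREBP-1 and of insulin.

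Scd and Scd2 lie near each other on rat chromosome 1 and showed different patterns over the groups, so the 250 bases before each start site are shown, from RefSeq on the build GRCr8. The Scd window is chr1:253231732-253231981 on the minus strand and the Scd2 window chr1:253118127-253118376 on the plus strand, both written 5′ to 3′ with motif matches in capitals.
Scd: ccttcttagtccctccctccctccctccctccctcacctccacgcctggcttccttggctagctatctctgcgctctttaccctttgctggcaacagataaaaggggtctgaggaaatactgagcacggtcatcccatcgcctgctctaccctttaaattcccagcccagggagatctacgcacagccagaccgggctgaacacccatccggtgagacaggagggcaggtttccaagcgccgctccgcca
Scd2: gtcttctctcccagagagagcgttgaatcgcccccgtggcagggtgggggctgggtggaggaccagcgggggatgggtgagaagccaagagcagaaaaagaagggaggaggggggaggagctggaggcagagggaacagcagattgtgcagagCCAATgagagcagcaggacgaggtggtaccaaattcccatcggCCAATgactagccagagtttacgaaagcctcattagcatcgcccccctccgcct
The motifs searched, on both strands and with no overlap between the matches found, were CCAAT, the box bound by NF-Y, CACGTG, the E-box, GGGCGG, the GC box, and TCACNCCAC, a sterol response element. Over 33469 RefSeq promoters of the same length they were held by 34.0%, 5.59%, 30.5% and 0.974%. The Scd window held none of them. The Scd2 window held 2 CCAAT boxes, 97 and 54 bases before the start. Of the 5 members with a promoter entry, Acly had a CCAAT box at 71 bases and 3 GC boxes, Acacb a CCAAT box at 72 bases, and Me1 5 GC boxes.

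All 18 tested probe sets differed among the 6 groups by limma's F test at an adjusted p under 0.05 (Benjamini-Hochberg over 5039 tested probe sets), where 51.8% of all tested probe sets did. The brightest probe set of each gene by mean signal is called the main one here and given first. On it, signals of Fasn, Me1 and Acaca were high in F344 and ACI, lower in Cop, BUF/N and WF, and lowest on average in F1. By limma F1 and WF did not differ there at the threshold (adjusted p = 0.0796, 0.186 and 0.246). On the Me1 probe set M26594_at, F1 (mean signal 268.1) was not below BUF/N (256.6) or WF (227.7). On its main probe set Scd was high and even in Cop, F344 and ACI and low in F1, with BUF/N and WF between. Its second probe set was also lowest in F1 but not even in these groups. Scd2 was lowest in Cop and not low in F1 on its main probe set, and its other probe sets did not all share this order. Changes are differences of mean log2 signal, and a change is called where limma's adjusted p is under 0.05.

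**Figure D1:**
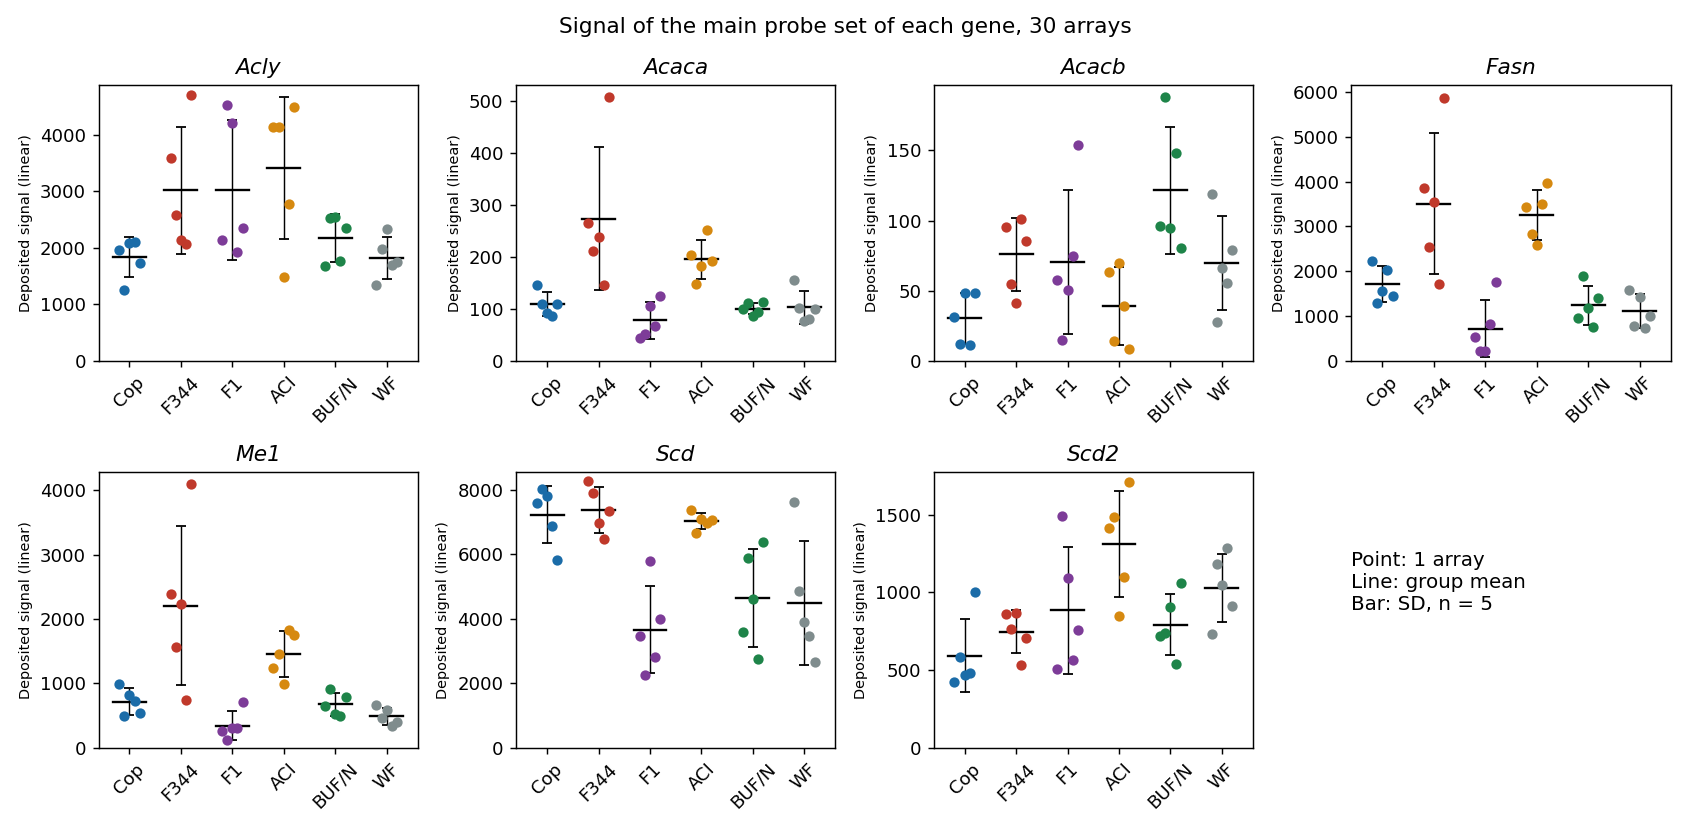
Deposited signal (linear scale, from 0) of the main probe set of each gene on each of the 30 arrays by group; points are arrays, lines group means and bars the SD (n = 5). Fasn, Me1 and Acaca are highest in F344 and ACI, the 5 F1 arrays of Scd lie below all Cop and F344 arrays, and Acly and Scd2 show no such low F1 group.

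Of the 30 arrays, 4 stood apart from their groups. Over all probe sets F1 2 and F1 3 resembled each other (r = 0.959) more than the rest of F1 (0.846 to 0.893), and ACI 2 and ACI 5 resembled each other (0.951) more than the rest of ACI (0.876 to 0.913). The median correlation within groups was 0.947. ACI 2 and ACI 5 also had the highest median signal (102, against 65.8 to 86.8 elsewhere), and the main results on F1 and ACI are given also without these 4 arrays. WF 1 had a median r of 0.91 with its own group, about that of ACI 2 (0.912), but was left out only singly. White adipocyte markers were well measured (8 of 11 on the array, none at the floor throughout a group), as were luminal epithelial (7 of 10) and milk protein genes (7 of 8), while skeletal muscle markers (11 of 12) summed to between 217 and 27200 per array. In such whole tissue, fewer cells of a type and less RNA per cell cannot be told apart.

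Among the genes that supply substrate, Acly changed least clearly. The main probe set (J05210_g_at) read 1963.1, 1254.5, 2087.6, 2108.9 and 1727.5 in Cop, and 3577.5, 2582.7, 2129.2, 2062.3 and 4703.8 in F344. It read 2131.4, 4520.5, 4197, 1916.4 and 2349.4 in F1 and 4125.5, 4135.6, 1488.2, 2765.5 and 4486.1 in ACI. BUF/N gave 1681.5, 2531.8, 2537.9, 1762.2 and 2353.8, and WF 1336.5, 1982.8, 2338.4, 1690.6 and 1746.1. The groups overlapped, and within F1 the high values were those of F1 2 and F1 3, and within ACI the low one was ACI 3. The F test passed (adjusted p = 0.0305), but none of the 15 pairs of groups did. F1 stood at 0.32 ± 0.24 (SE) above the mean of its parents, which was not called (adjusted p = 0.305), and at -0.09 without the 4 arrays.

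The other Acly probe sets gave more calls. The probe set J05210_at, which followed the main one over the 30 arrays (r = 0.89), was higher in ACI than in Cop (Cop minus ACI -1.25, adjusted p = 0.0335), BUF/N (1.29, 0.0168) and WF (1.39, 0.0157). Each of these 3 ended without ACI 2 or without ACI 5, among other arrays, and with all 4 arrays left out they stood at -0.81, 0.85 and 0.96. The probe set L27075_g_at hardly followed the main one (r = 0.30). It was lower in Cop than in ACI (-1.35, adjusted p = 0.00312) and lower in F1 than in ACI (-1.38, 0.000724), with no overlap of the signals in either pair (-1.45 and -1.15 without the 4 arrays, both called). It was also lower in Cop than in F344 (-1.12, 0.0181), a call lost without Cop 5 (-0.96, 0.0637) or F344 5 (-0.87, 0.0918). Its F1 arrays did not differ from the parents' mean at the threshold (-0.59, 0.0593), and stood at -0.26 (0.538) without the 4 arrays.

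Me1, a source of NADPH, is next. Its main probe set (rc_AI171506_g_at) read 992.4, 495, 820, 725.3 and 543.5 in Cop and 2390, 1569.7, 2236.9, 737.8 and 4090.5 in F344. It read 254.1, 121.5, 304.8, 311.5 and 712.7 in F1 and 1238.8, 1456.4, 981.3, 1824.9 and 1757.9 in ACI. BUF/N gave 654, 903.9, 526.2, 483.8 and 780.8, and WF 656.6, 460.4, 579.8, 335.1 and 399.3. Every F1 array lay below every F344 and ACI array, 4 of the 5 F1 arrays lay below all 10 parental ones, and within F344 the range ran from F344 4 to F344 5.

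Me1 was 6.56-fold lower in F1 than in F344 on the fitted scale (F344 minus F1 2.71 ± 0.36 SE, limma adjusted p = 5.03e-06) and 2.28 log2 units lower than in ACI (adjusted p = 5.17e-05). Without the 4 arrays F344 minus F1 was 2.32 (0.000279) and F1 minus ACI -1.77 (0.0104). Against the mean of its parents F1 was lower by 1.98 ± 0.31 (95% interval -2.62 to -1.35, adjusted p = 2.49e-05), and without the 4 arrays by 1.58 (0.00191). F344 exceeded WF by 2.02 (0.000352) and BUF/N by 1.55 (0.00293), and ACI exceeded WF by 1.58 (0.00528; 1.47 and 0.0215 without the 4 arrays). Cop was lower than F344 (-1.46, 0.0152), a call lost without Cop 2 (-1.34, 0.058) or F344 5 (-1.19, 0.075). Cop exceeded F1 by 1.25 (0.0106), a call lost without F1 2 (0.93, 0.051) and without the 4 arrays (0.85, 0.117).

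The other 3 tested Me1 probe sets ran with the main one (r = 0.89, 0.97 and 0.89 over 30 arrays), and all were lower in F1 than in the parents' mean. The probe set rc_AI171506_at fell by 2.44 (adjusted p = 2.04e-06), M26594_at by 1.12 (0.0114) and rc_AI008020_at by 0.93 (0.0058). Without the 4 arrays M26594_at was no longer called (-1.02, 0.0752), while rc_AI171506_at (-1.96) and rc_AI008020_at (-0.81, 0.049) were. On M26594_at the F1 arrays read 263.3, 165.1, 323.4, 218.4 and 370.1, beside 143.8 to 504 in Cop, and the F1 and Cop signals overlapped there. The dim remaining probe set was not tested.

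Acaca had 1 probe set (J03808_at). It read 146.6, 108.7, 92.6, 87.2 and 109.3 in Cop and 266, 210.5, 239.1, 146.2 and 507.7 in F344. It read 43.1, 50.9, 105.7, 66.1 and 125.3 in F1 and 204.1, 147.2, 182.1, 251.5 and 192.3 in ACI. BUF/N gave 98.8, 110.6, 86.4, 93.7 and 113.4, and WF 155.6, 102, 77.6, 80.4 and 100. All ACI and F344 arrays lay above all F1 and BUF/N arrays, and 3 of the 5 F1 arrays lay below every parental one.

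Acaca was higher in F344 than in F1 (1.80 ± 0.27 SE, limma adjusted p = 2.5e-05), BUF/N (1.33, 0.00113), WF (1.33, 0.00166) and Cop (Cop minus F344 -1.23, 0.00689). ACI exceeded F1 (F1 minus ACI -1.42, 0.000428), BUF/N (0.94, 0.0197) and WF (0.95, 0.0306). The difference from BUF/N was lost without ACI 4 (0.85, 0.0531), and that from WF without any of ACI 1, ACI 4, ACI 5, WF 2, WF 3, WF 4 or WF 5 (0.85 to 0.96, adjusted p up to 0.0827). All 3 were called without the 4 arrays (-1.57, 1.07 and 1.08), and so was F344 minus F1 (1.82, 0.000312). F1 lay below the parents' mean by 1.19 ± 0.24 (0.000381), and by 1.21 (0.00289) without the 4 arrays.

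Acacb, the mitochondrial carboxylase, was dim and had a different order. Its probe set (AB004329_at) read 31.5, 11.9, 48.6, 11 and 48 in Cop and 95.6, 54.9, 41.4, 101.4 and 85.7 in F344. It read 57.4, 14.9, 50.8, 74.4 and 153.6 in F1 and 63.2, 14.3, 69.4, 39.4 and 8.7 in ACI. BUF/N gave 96.2, 187.7, 95, 148.4 and 80.1, and WF 119, 27.6, 65.9, 55.6 and 79.2. All BUF/N arrays lay above all Cop and ACI arrays, and 5 of the 30 values were at or under the floor of 18.3.

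Acacb was lower in Cop than in BUF/N (-1.94 ± 0.47 SE, limma adjusted p = 0.00359). It was also lower in ACI than in BUF/N (-1.69, 0.0156), a call lost without ACI 2 (-1.46, 0.0592) or ACI 5 (-1.46, 0.0604) and without the 4 arrays (-1.05, 0.12). Both changes rest on values at the floor and are no exact size. F1 did not differ from the parents' mean at the threshold (0.30, interval -0.54 to 1.14), nor without the 4 arrays (0.91, 0.0932).

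Fasn, which builds the chain, followed Me1. Its main probe set (M76767_s_at) read 2238.7, 1299, 1567.4, 2032.5 and 1451.2 in Cop and 3863.8, 2545, 3556.2, 1715.6 and 5870.1 in F344. It read 540.5, 226.3, 230, 831.4 and 1769.4 in F1 and 3427.1, 2829.8, 2576.7, 3504 and 3970.7 in ACI. BUF/N gave 964.6, 1890.6, 1170.2, 759.1 and 1407.7, and WF 1588.4, 786.8, 1419.6, 728.3 and 1010.3. The ACI arrays were even and lay above all F1, Cop, BUF/N and WF arrays, 4 of the 5 F1 arrays lay below all parental ones, and F1 5 lay among the Cop arrays.

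Fasn was 6.1-fold lower in F1 than in F344 on the fitted scale (F344 minus F1 2.61 ± 0.39 SE, limma adjusted p = 2.06e-05), and lower than in ACI by 2.61 (3.14e-05). F1 lay below the parents' mean by 2.14 ± 0.34 (interval -2.83 to -1.45, adjusted p = 2.82e-05). Without the 4 arrays, which leaves F1 at 1047 ± 642 (SD, n = 3), the drop was 1.33 (0.00403), F344 minus F1 was 1.80 (0.00117) and F1 minus ACI -1.76 (0.00571). F344 exceeded WF by 1.62 (0.00668) and BUF/N by 1.45 (0.00935), and ACI exceeded WF by 1.61 (0.00935) and BUF/N by 1.45 (0.0122), and by 1.57 and 1.41 without the 4 arrays. Cop exceeded F1 by 1.67 (0.0024), but by 0.86 (0.0851) without the 4 arrays. BUF/N exceeded F1 by 1.16 (0.0391), a call lost without any of F1 1, F1 2, F1 3, BUF/N 1, BUF/N 2, BUF/N 3 or BUF/N 5 (adjusted p up to 0.158). F1 minus BUF/N was -0.35 (0.563) without the 4 arrays.

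The second Fasn probe set (X13527cds_s_at) gave a smaller drop in F1. Its F1 arrays read 541.3, 1128.4, 1383.3, 1028.7 and 1870.1, so that F1 2 and F1 3, far the lowest on the main probe set, were in the middle of the group here. It stood below the parents' mean by 0.70 ± 0.24 (limma adjusted p = 0.0257), a call lost without F1 1 (-0.44, 0.147), F344 5 (-0.59, 0.0514) or the 4 arrays (-0.82, 0.0516). Here Cop was lower than F344 (-1.27, 0.00689) and than ACI (-1.08, 0.018), the latter lost without Cop 2 (-1.02, 0.0509) and at -1.13 (0.0383) without the 4 arrays. The probe sets correlated at 0.76 over the 30 arrays. The ratio of 3′ to 5′ actin signal, which rises where RNA or its copies are cut short, was 1.27 to 1.98 in F1, 1.10 to 1.72 in Cop and 1.23 to 1.48 in F344. F1 3 (1.27) and F1 2 (1.49) had the lowest actin ratios of F1, and F1 1 the highest (1.98). The same ratio for GAPDH was 0.868 (F1 2) to 1.07 in F1, 0.91 to 1.14 in Cop and 0.91 to 1.01 in F344. The part of RNA quality in these results was not tested.

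Scd, the main desaturase of adipose tissue, gave one of the brightest probe sets of the array (J02585_at, brighter than 99.2% of all). It read 7586.8, 8039, 7805.5, 6894.4 and 5832.4 in Cop and 8265.9, 7907, 6958.8, 6487.4 and 7335.3 in F344. It read 3464.5, 2247.1, 5790.5, 2823.7 and 3994.1 in F1 and 7383.2, 6662.7, 7089.7, 6982.8 and 7080.8 in ACI. BUF/N gave 3592.2, 5897.4, 4619.9, 2751.9 and 6385.9, and WF 7631.7, 4875.8, 3888.1, 3452.9 and 2650.7. All 5 F1 arrays lay below all 15 arrays of Cop, F344 and ACI, whereas BUF/N and WF spread across both ranges.

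Scd was lower in F1 than in the parents' mean by 1.06 ± 0.20 (interval -1.47 to -0.66, limma adjusted p = 0.000194), and by 1.10 (0.000843) without the 4 arrays. The differences of F1 from F344 (1.08, 0.000893), Cop (1.05, 0.00145) and ACI (-1.02, 0.00173) were about equal, and without the 4 arrays they were 1.12, 1.08 and -1.08, all called. Cop and F344 exceeded BUF/N and WF by 0.70 to 0.81, and ACI exceeded WF by 0.74 (0.0458). Each of these 5 calls ended when single arrays were left out. The 2 of Cop ended without Cop 1 or Cop 2, and that against BUF/N also without Cop 3. The 2 against BUF/N ended without BUF/N 1 or BUF/N 4 (lowest Cop minus BUF/N, 0.52 and 0.107 without BUF/N 4), and the 3 against WF without WF 3, WF 4 or WF 5 (lowest ACI minus WF, 0.57 and 0.153 without WF 5). ACI minus WF was lost without any of 19 of the 30 arrays, and without the 4 arrays (0.76, 0.0639).

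The second Scd probe set (rc_AI175764_s_at) gave the largest change of F1 among the 18, and correlated with the main one at 0.77 over the 30 arrays. It was less even within groups. The SD was 46.7% of the mean in Cop, 38.2% in F344 and 31.7% in ACI, against 12.3%, 9.66% and 3.67% on the main probe set. The signals of the second one were 737.2, 300.8, 254.5, 340.1 and 572.4 in Cop, 690, 509.8, 1008.6, 341.5 and 756 in F344, and 65.3, 35.4, 102.2, 63.4 and 87.1 in F1. ACI gave 353.6, 881.9, 747.2, 929 and 927.8, BUF/N 121.8, 329.8, 58.2, 63.4 and 347.8, and WF 426.5, 544.9, 154.3, 417.8 and 188.9. The F1 arrays lay below every array of Cop, F344, ACI and WF, and overlapped those of BUF/N. F1 was 7.54-fold below its parents' mean on the fitted scale (-2.91 ± 0.39, limma adjusted p = 3.84e-06), and the change was -2.82 (0.000226) without the 4 arrays. F1 also lay below WF (-2.22, 0.00147) and ACI (-3.45, 4.58e-06), and ACI exceeded BUF/N by 2.39 (0.000572), and without the 4 arrays these 3 were -2.12, -3.14 and 2.17, all called.

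Scd2, the desaturase described chiefly from brain and developing tissue, had its own order, and its probe sets disagreed. The main one (rc_AA875269_at) read 424.2, 583.9, 469.7, 477 and 998.5 in Cop and 856.6, 764.9, 868.6, 533.8 and 707.1 in F344. It read 507, 1492.1, 1094.5, 563.7 and 756.8 in F1 and 1416.5, 1483.9, 847.9, 1096 and 1708.2 in ACI. BUF/N gave 716.7, 735.5, 906.8, 540.9 and 1060.6, and WF 730.8, 1181.7, 1043.7, 1282.9 and 910.1. The groups overlapped, with 4 of the 5 Cop arrays among the lowest and the F1 arrays spread over most of the range.

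Cop was lower than ACI on the main Scd2 probe set (-1.18 ± 0.26 SE, limma adjusted p = 0.0051), and without the 4 arrays (-0.97, 0.0177). It was also lower than WF (-0.85, 0.0286), a call lost without any of Cop 1, Cop 3, Cop 4, WF 2, WF 3 or WF 4 (-0.75 to -0.84, adjusted p up to 0.0904). F344 minus ACI was -0.79 (0.0439), lost without any of 8 of the 10 arrays of the pair and without the 4 arrays (-0.58, 0.168). F1 minus the parents' mean was 0.34 (interval -0.12 to 0.80) and not called, and it turned to -0.10 (0.792) without the 4 arrays. Correlations of the other 4 tested Scd2 probe sets with the main one were 0.26 to 0.51.

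On all 5 tested Scd2 probe sets Cop was lower than ACI and than WF, and 4 of these 10 calls were lost without at least 1 single array. The largest of these changes was on U67995_s_at, where Cop read 38.1 to 94.2 and WF 146 to 302.7 with no overlap (Cop minus WF -1.79 ± 0.28, limma adjusted p = 5.02e-05). For F1 against its parents the probe sets went apart. U67995_s_at was higher by 0.67 (0.0338; 0.72 and 0.0333 without the 4 arrays), a call lost without Cop 3, Cop 4, F344 5, F1 3 or F1 5 (0.55 at the lowest, adjusted p = 0.0959). M15114_g_at was lower by 0.74 (0.0315), but its low F1 values were those of F1 2 (134) and F1 3 (110.2), and it stood at -0.01 (0.976) without the 4 arrays, -0.50 (0.167) without F1 2, -0.43 (0.208) without F1 3 and -0.66 (0.0551) without Cop 5. The probe sets AF036761_at (-0.10) and S75730_at (0.12) were not called. The sixth (M15114_at) was at or under the floor on 25 arrays.

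Over all members, F1 lay below both parents on 11 of the 18 probe sets, between them on 4 and above both on 3, the last all of Scd2. The share of all tested probe sets in each place was not computed. On L27075_g_at F1 was only just below Cop (mean log2 signal 6.49 and 6.52), as on X13527cds_s_at (10.11 and 10.17). Without the 4 arrays, of these 3 Scd2 probe sets, U67995_s_at alone kept F1 above both parents (Cop minus F1 -1.16, F344 minus F1 -0.29). There the main one had F1 between them (-0.10 and 0.29), and S75730_at had it level with Cop and just below F344 (0.00 and 0.06). Among the 11 below both, L27075_g_at of Acly and M15114_g_at of Scd2 then had F1 between its parents (Cop minus F1 -0.3 and -0.28). The other way, J05210_at of Acly went from between to below both (Cop minus F1 0.16). Acacb went from between to above both (Cop minus F1 -1.54, F344 minus F1 -0.28). With all arrays, 11 of the 18 were called against the parents' mean, where 35.2% of all tested probe sets were. Of these, 10 were lower, where 17.8% of all tested probe sets were lower: all 4 of Me1, both of Fasn, both of Scd, Acaca, and 1 of Scd2. The median change of the 18 was -0.72, beside 0.02 for all tested probe sets. Without the 4 arrays 8 of the 11 calls remained, where 24.6% of all probe sets were called. Leaving out any 1 array kept 9 or more of the 11.

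**Figure D2:**
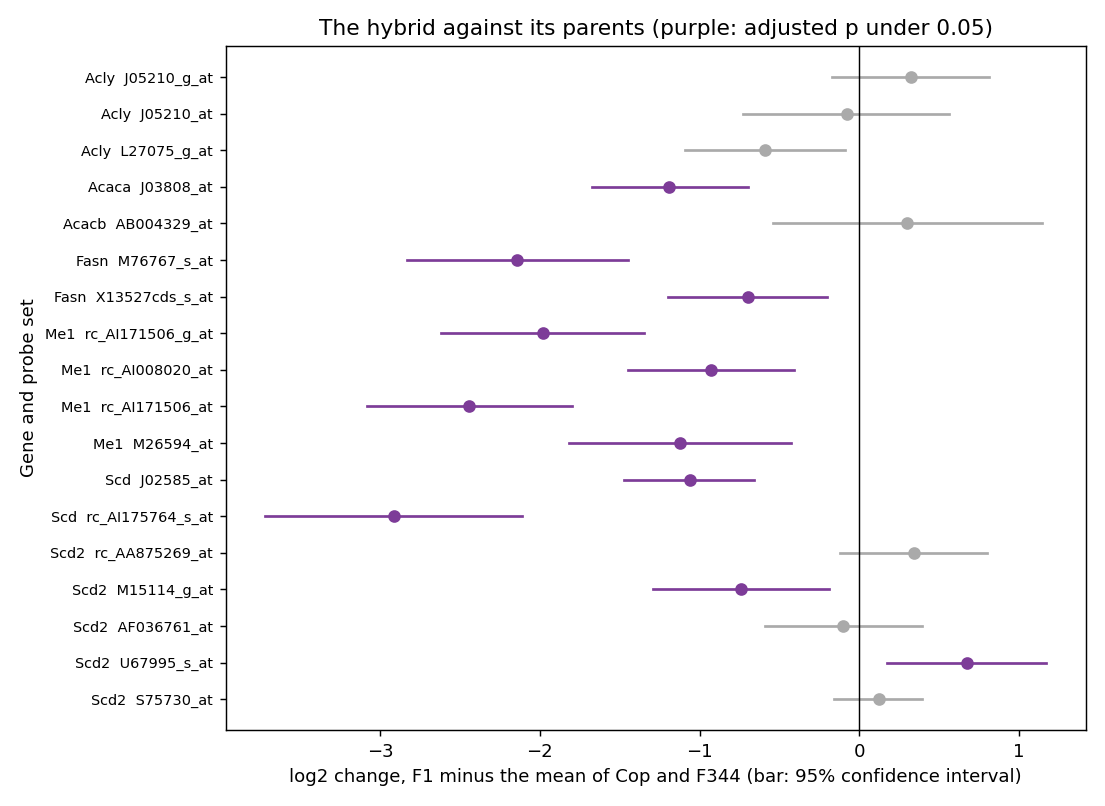
Log2 change of F1 against the mean of Cop and F344 for the 18 tested probe sets, with 95% confidence intervals; purple marks an adjusted p under 0.05. Both Scd, both Fasn, all 4 Me1 probe sets and Acaca lie below 0, while Acly, Acacb and the Scd2 probe sets scatter about 0, between -0.74 and 0.67.

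Other values of the tissue also differed between F1 and its parents. Summed signals of the white adipocyte markers were 19100 to 22000 in F1, inside the span of its parents (19600 to 26500 in Cop, 17900 to 20300 in F344). Milk protein genes summed to 18000 to 41600 in F1, above all Cop (4900 to 11700) and F344 (7250 to 10700) arrays. In ACI, where Fasn, Me1 and Acaca were high, these genes summed to 12200 to 22900, also above all parental arrays. The sums were 12700 to 30200 in BUF/N and 9460 to 25100 in WF. Basal and smooth muscle markers in F1 were also above all parental arrays (9610 to 12900, against 4850 to 7740 and 6140 to 7510). They summed to 6940 to 9450 in ACI, 7630 to 9080 in BUF/N and 8710 to 11400 in WF. Brown adipocyte markers (4 of 6 on the array), of which Dio2 was at the floor in Cop, F344 and F1, were below all parental arrays in F1 (260 to 411, against 451 to 716 and 500 to 781). Skeletal muscle markers were 217 to 3340 in F1, with Eno3 at the floor on all 5, against 436 to 24600 in Cop and 5190 to 27200 in F344. The part of these tissues in the members' signals was not tested.

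Between the parents, 7 of the 18 probe sets were called, all lower in Cop, where 3.45% of all tested probe sets were called and 1.77% were lower in Cop. They were all 4 of Me1, Acaca, 1 of Fasn and 1 of Acly, and the median of the 18 was -0.90 beside 0.03 for all. Of the 7 calls, 3 were kept without Cop 2 and 2 without F344 5 (Acaca and X13527cds_s_at of Fasn), while single other arrays ended at most 1. F344 5 was the highest of its group for 4 of the 7 genes and had the largest skeletal muscle sum (27200). Cop 2 was the lowest of its group for 4 genes and had the smallest muscle sum of Cop (436). Cop 1 was the highest of its group for 3 genes and had the largest muscle sum of Cop (24600). In F344 other arrays did not follow this order. F344 4 was the lowest for 6 genes with a muscle sum of 17400. F344 1 had the smallest sum of F344 (5190) and was the lowest for 0 genes. The part of muscle in this difference was not tested. White adipocyte sums ran the other way, with 4 of the 5 Cop arrays above all F344 arrays. Luminal epithelial markers summed to 2270 to 4500 (median 2980) in Cop and 4360 to 6170 (median 5510) in F344, and their part was not tested.

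The arrays of the pools, which were in no test and may hold the same animals, gave a log2 ratio of Cop to F344 of -1.28 for Fasn, -1.63 for Me1, -1.21 for Acaca, -1.08 for Acly and -0.78 for Acacb. Scd (-0.31) and Scd2 (-0.32) differed less there.

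Against the other strains the members differed more often than the array as a whole in most pairs. Cop was lower than ACI on 10 of 18 probe sets of Acly, Fasn, Me1 and Scd2 (7.6% of all called, 4.31% lower in Cop), but 6 of these were lost without Cop 2, 4 without ACI 5 and 4 without the 4 arrays. F344 was higher than F1 on 11 (31.7% of all called, 15.4% higher in F344), of which 9 remained without the 4 arrays. F1 was lower than ACI on 12 (29.2% of all called, 16.7% lower in F1), of which 3 were lost and 1 other was gained without the 4 arrays.

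In F344 and ACI most called members stood above BUF/N and WF. F344 against BUF/N gave 10 calls, 9 of them higher in F344 (23.8% of all called, 10.5% higher), and F344 against WF gave 10, 8 of them higher (11.3% called, 4.56% higher). ACI against BUF/N gave 9 calls, 8 of them higher in ACI (13.7% called, 7.34% higher), of which 3 were lost and 1 other was gained without the 4 arrays. ACI against WF gave 10 calls, all higher in ACI (7.18% called, 3.49% higher), with 5 kept without ACI 5 and 6 without ACI 4, WF 4, WF 5 or the 4 arrays. Luminal epithelial markers summed to 6350 to 8540 in BUF/N and WF, above all F344 and ACI arrays (3800 to 6180). Brown adipocyte markers summed to 500 to 781 in F344, 370 to 552 in ACI, 262 to 412 in BUF/N and 232 to 382 in WF. The part of these tissues in the differences was not tested. The calls in the opposite direction were Scd2 for F344 and Acacb for ACI. These comparisons share arrays, so their counts are not independent of each other.

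In the remaining pairs the members' share was nearer to the background in percentage points, or below it. Cop against F1 gave 6 calls (33.3%, beside 26.3% of all called), 5 of them higher in Cop, and Cop against BUF/N 5 (27.8% beside 23.3%). Cop against WF gave 6 (33.3% beside 12.8%), of which the 5 lower in Cop were all Scd2. F1 against BUF/N gave 5 lower in F1 (27.8% beside 17.3%). F1 against WF gave 5 lower (27.8% beside 15.2%), and of the 2 sets of 5, 1 and 2 were called without the 4 arrays. F344 against ACI gave 1 (5.56% beside 12.3%). BUF/N against WF gave none of 18 (2.22% of all called by limma), where 577 of all tested probe sets had an unadjusted p under 0.05. In all, 107 of the 270 tests of a member in a pair were called, or 39.6%, beside 15.8% over all probe sets.

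**Figure D3:**
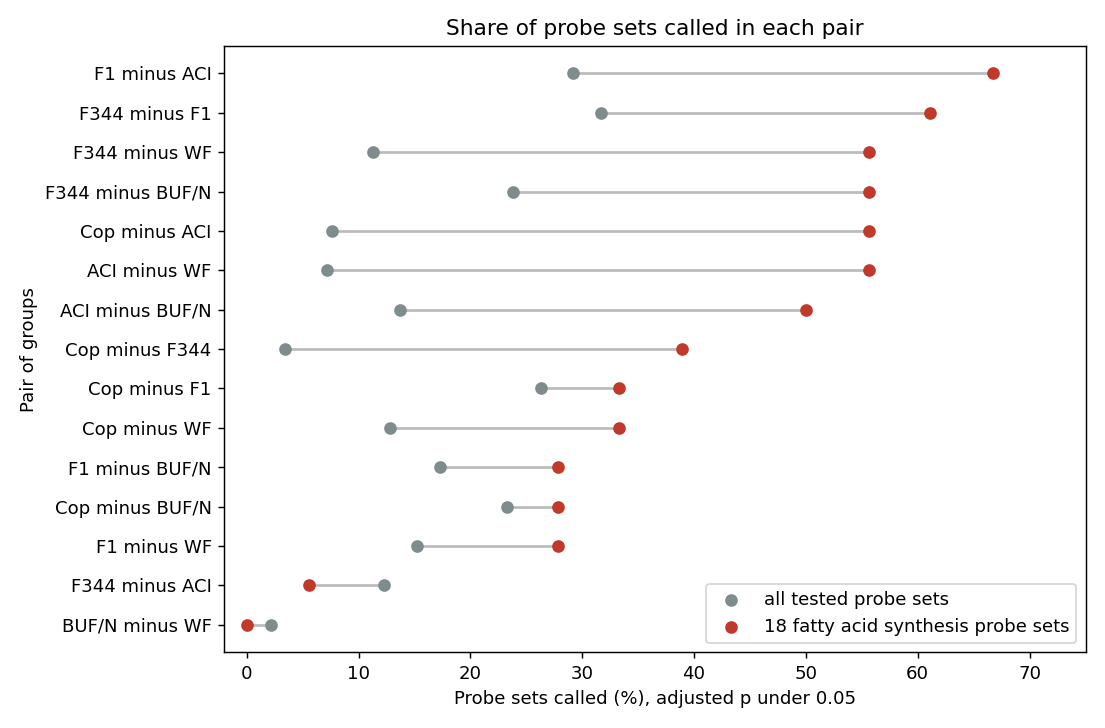
Share of probe sets called (adjusted p under 0.05) in each of the 15 pairs of groups, for the 18 members (red) and all 5039 tested probe sets (grey). The members' share is highest for F1 against ACI (66.7%) and is below the grey point for F344 against ACI and BUF/N against WF.

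**Figure D4:**
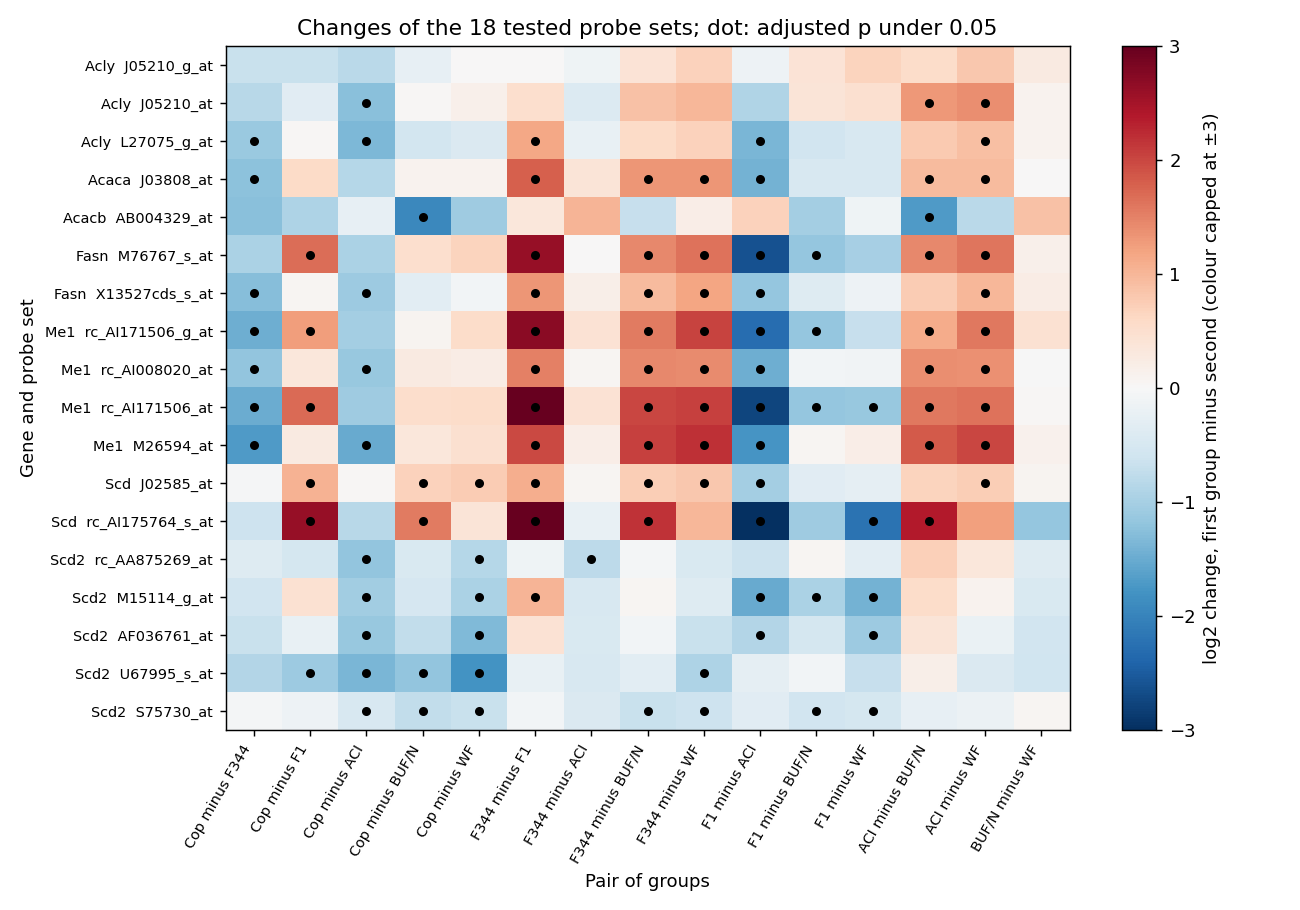
Log2 change of each tested probe set (rows) in each pair of groups (columns), first group minus second, red higher and blue lower, with a dot where the adjusted p is under 0.05. Me1, Fasn, Acaca and Scd share the red column F344 minus F1 and the blue column F1 minus ACI. The Scd2 rows are blue in Cop minus ACI and Cop minus WF, and also in F1 minus ACI, there with dots on M15114_g_at and AF036761_at only. M15114_g_at also has a dot in F344 minus F1.

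When the groups were ordered by mean log2 signal, the order for Fasn was F344, ACI, Cop, BUF/N, WF and F1, and that for Me1 and Acaca was the same. For Scd it was F344, Cop, ACI, BUF/N, WF and F1. For Scd2 it was ACI, WF, F1, BUF/N, F344 and Cop, for Acly ACI, F344, F1, BUF/N, Cop and WF, and for Acacb BUF/N, F344, WF, F1, ACI and Cop. No 2 neighbours in these orders of the main probe sets differed at the threshold (the nearest were ACI and BUF/N for Scd, limma adjusted p = 0.0518, and ACI and Cop for Acaca, 0.0547).

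Within groups, too, some members moved together. After each group's mean was subtracted, Fasn and Me1 correlated over the 30 arrays at Pearson's r = 0.83 and Spearman's rho = 0.85 (permutation within groups, p = 1e-05, the smallest that 100000 resamples can give, adjusted p = 0.00021 over 21 pairs of genes). Without the 2 arrays farthest from the median of Fasn, r was 0.74. Acaca and Me1 gave r = 0.75 and rho = 0.64 (permutation adjusted p = 0.0041 and 0.0078, and r = 0.62 without the 2 farthest). Acly and Scd2 gave r = 0.59 and rho = 0.56 (0.021 and 0.026, and r = 0.59). The other 18 pairs missed the threshold on Pearson's r, among them Fasn and Scd (0.27) and Scd and Scd2 (-0.01). Of these, Acaca with Scd (rho = 0.56, permutation adjusted p = 0.026) and Acacb with Scd2 (-0.52, 0.038) passed on Spearman's rho. Each array gives 1 value for every gene, so the array's own scaling and tissue make-up are shared by both axes.

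**Figure D5:**
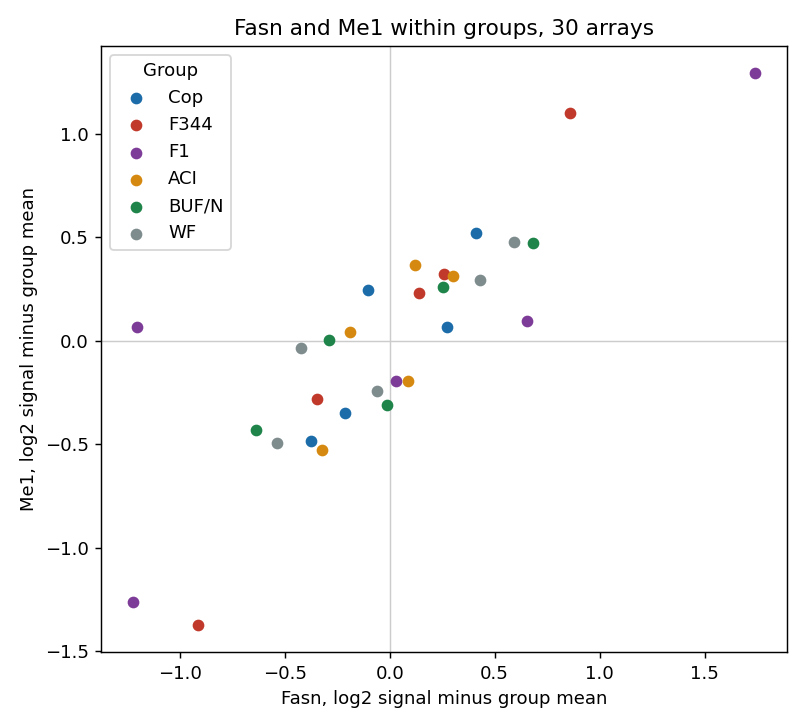
Log2 signal of Me1 against that of Fasn on the 30 arrays, each minus its group's mean, coloured by group. The points rise together (r = 0.83), with F1 5 and F344 5 at the top right and F1 2 and F344 4 at the bottom left.

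Individual arrays were high or low for several members at once. F344 4 was the lowest of its group for 6 of the 7 genes, and F344 5 the highest for 4. F1 2 was the lowest for 4 genes and F1 5 the highest for 4. WF 1 was the highest of its group for 5.

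The genes whose pattern over the 30 arrays was most like a member's, among 4196 to 4200 tested probe sets with another single symbol, were partly members themselves. The nearest to Fasn were Me1 on both probe sets (r = 0.94, and 0.82 and 0.83 with group means removed) and Dlat, a subunit of the pyruvate dehydrogenase complex (0.90, and 0.72). Those to Me1 were Fasn, Acaca (0.91) and Mpc1, a mitochondrial pyruvate carrier subunit (0.85, and 0.66), and those to Acaca were Me1 on both probe sets and Fasn (0.91 each). Scd was most like Mpc1 (0.82, and 0.52), Slc25a10, the mitochondrial dicarboxylate carrier (0.78, and 0.54), and Dlg2 (0.75, and 0.35). Acly was most like Pgm1 (0.77), Cct6a (0.73) and C1qbp (0.70). Scd2 was most like Gnptg (0.80), Acat2, an enzyme that condenses acetyl-CoA (0.80), and Agrn (0.75). Acacb was most like Clu (0.80) and the tight junction genes Ocln (0.79) and Cldn3 (0.78).

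Among the regulators of lipid synthesis, 5 of 12 tested genes differed among the groups (51.8% of all tested probe sets did), and against the parents' mean 4 were higher and 2 lower in F1 (35.2% of all called, 17.8% lower; median 0.07, beside 0.02 for all probe sets). The lower ones were Insig1, the sterol-induced brake on SREBP processing, at -1.44 (limma adjusted p = 4.68e-06), and Pparg, the adipocyte master regulator, at -1.52 (3.93e-06). Insig1 read 1773 ± 436 (SD, n = 5) in Cop, 1475 ± 457 in F344, 603.9 ± 193 in F1 and 1449 ± 262 in ACI. It read 436.2 ± 150 in BUF/N and 670.8 ± 60.4 in WF, so that low values were not confined to F1. Pparg read 633.2 ± 159 in Cop, 814 ± 119 in F344, 266.1 ± 134 in F1 and 362.7 ± 110 in ACI, so that, unlike Fasn and Me1, it was low in ACI too. In BUF/N it read 367 ± 72.7 and in WF 463.5 ± 82.2. The AMPK subunits Prkag1 (0.70, 0.00125) and Prkab1 (0.43, 0.0354) were higher, and so was Usf1 on its main probe set (0.69, 0.000668) but not on its others (0.06 and 0.27). Srebf1 itself gave -0.09 (limma adjusted p = 0.794) and Nr1h3, the liver X receptor alpha, -0.34 (0.0849). Neither passed the F test over the 6 groups (adjusted p = 0.264 and 0.0793).

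Of 13 tested genes that supply acetyl-CoA, citrate or NADPH, 11 differed among the groups (51.8% of all) and 7 were lower and 0 higher in F1 than in the parents' mean (35.2% of all called, 17.8% lower; median -0.42). Pyruvate carboxylase Pc was lower by 1.06 (limma adjusted p = 0.000109), the NADP-linked isocitrate dehydrogenase Idh1 by 0.67 (4.51e-05), malate dehydrogenase Mdh1 by 0.69 (0.00148) and citrate synthase Cs by 0.38 (0.0356). Mean signals in F1, BUF/N and WF were 395.7, 326.6 and 313.2 for Pc and 892.8, 1078 and 1330 for Idh1. They were 2089, 2046 and 2218 for Mdh1 and 295.3, 291.1 and 280.5 for Cs. The main probe set of Pdha1, of pyruvate dehydrogenase, was not called (-0.26, 0.0576), while its other one was (-1.01, 1.39e-05).

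Of 10 tested genes of elongation, further desaturation and activation, 5 were lower and 2 higher in F1 (35.2% of all called, 17.8% lower; median -0.32). Hsd17b12, the ketoacyl reductase of elongation, was lower by 1.69 (limma adjusted p = 7.35e-07), the acyl-CoA synthetase Acsl1 by 0.94 (5.08e-05), the acyl-CoA binding protein Dbi by 0.85 (8.06e-05) and Acot2 by 0.72 (0.00778). Mean signals in F1, BUF/N and WF were 276.1, 301.7 and 575.7 for Hsd17b12 and 1266, 1580 and 2256 for Acsl1. They were 777.5, 663.6 and 770.4 for Dbi and 102.8, 116.9 and 238.5 for Acot2. Olah, the thioesterase that releases medium chains from fatty acid synthase in the lactating gland, was higher by 1.89 (6.2e-05), at 3916 ± 1200 (SD, n = 5) in F1 against 852.5 ± 518 in Cop and 1458 ± 229 in F344. Fasn and Olah moved in opposite directions in F1 against its parents. Olah read 2158 ± 433 in ACI, where the main Fasn probe set was high (3262 ± 558). In BUF/N and WF Olah read 3287 ± 1650 and 1600 ± 1100, and Fasn 1238 ± 437 and 1107 ± 382. The relation of the 2 genes to each other and to the milk protein sum was not tested.

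Of 15 tested genes of uptake, triglyceride synthesis and storage, 5 were lower and 1 higher in F1, a share called near that of all probe sets (35.2% called, 17.8% lower; median -0.32). The monoglyceride lipase Mgll was lower by 0.98 (limma adjusted p = 3.25e-05) and the droplet coat gene Plin1 by 0.58 (0.0174). Plin2, the droplet coat gene of milk-secreting cells and many others, was higher by 1.25 (1.18e-05). Lipe, like Plin1 also one of the white adipocyte markers, stood at -0.32 (0.0501), and the probe sets of lipoprotein lipase, Lpl, disagreed (-0.35, -0.92 and 0.09, of which -0.92 was called).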

How the data were processed

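Signals per probe set were deposited by the authors as linear intensity values from Affymetrix Microarray Suite 5.0, per the submitters' processing notes in the labels. Their trimmed means (2% off each end) were equal on all arrays, so each had been scaled to one target. Intensities of 8799 probe sets (59 of them controls) were set to at least 18.3, the 25th percentile, then taken to log2. Tests covered the 5039 probe sets with 5 or more of the 30 arrays above the overall median of 78.4. Symbols came from the array's annotation table, updated through gene identifiers (7018 probe sets with 1 symbol, 308 with several, 1473 with none).

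Group means were fitted over all 30 arrays with limma 3.58.1 in R 4.3.3 (variance trend, 29.58 degrees of freedom), with Benjamini-Hochberg adjustment within each contrast at 0.05. The contrasts were an F test, 15 pairs, and F1 against the mean of Cop and F344. Fits were tested on simulated data. Correlations were computed in Python 3.11.15 with scipy 1.17.1. The number of arrays limits the precision.

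The members and gene lists were chosen with earlier results of these data known. All member probe sets were named. Per list, up to 5 genes with the smallest F test p were named by their brightest probe set, plus Srebf1, Nr1h3 and Insig1 whatever their result, and for each member the 3 most correlated probe sets. Alternatives were other floors, filters, normalizations, weights, a replicate block and left-out arrays.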

Additional observations from a re-analysis of the deposited data

Results flagged for a closer look

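In 7 of 120 sets of 5 arrays of a member probe set and group, 1 array stood apart from the other 4 by Dixon's criterion, which by chance happens in about 1 of 20. On the Fasn probe set X13527cds_s_at, BUF/N 2 read 2275.4, and the next highest BUF/N array 1387.4. On the Me1 probe set rc_AI008020_at, F1 2 read 298.9 with the next lowest at 432.4, and on rc_AI171506_at, F1 5 read 431.1 with the next highest at 157. On the main Scd2 probe set, Cop 5 read 998.5 with the next at 583.9. On the Scd2 probe set M15114_g_at, BUF/N 5 read 634.7 with the next at 493.6. On the untested, dim Scd2 probe set M15114_at, BUF/N 1 read 31 with the next at 5.3, and WF 1 read 22.2 with the next at 9.6.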

How the results depend on the processing

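Under every alternative run, 17 or 18 of the 18 probe sets passed the F test, 89 to 138 of the 270 pair tests were called (107 as reported), and 8 to 12 probe sets were called for F1 against its parents (11 as reported). Of the 118 called changes none reversed, 76 were kept whichever single array was left out, and 68 under every alternative. Lost were 29 without F1 2, F1 3, ACI 2 and ACI 5, 23 with centring on array medians, 21 with no filter, 19 with only the arrays compared and 6 with quantile normalization. Leaving out 1 array lost 0 (F1 4) to 15 (Cop 2). Centring moved the median of all probe sets by up to 0.31 (F1 minus ACI) and raised the share of all calls that were higher in Cop than ACI from 43.3% to 83.3%, while the members called there went from 10 to 6, all lower in Cop. With it 0 of 5 calls remained for F1 against BUF/N. With the replicate number as a block, 18, 107 and 10 probe sets or tests were called, and 4 of the 118 changes were lost. Of 75 same-numbered pairs 16 correlated above 0.1 (median -0.0158, from -0.452 to 0.398), and 5 of 30 arrays correlated best with their own number. Whether the numbers stand for a shared batch was not tested. Values near the floor, those of Acacb above all, limit what can be sized.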
